A study of Mus musculus with 15 samples.

Results

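The vascular endothelial growth factor (VEGF) family was examined in the endothelial hierarchy of a melanoma. The 10 genes were taken by symbol from the 53465 genes of the expression table: the 5 ligands *Vegfa*, *Vegfb*, *Vegfc*, *Vegfd* and *Pgf*, the 3 receptor tyrosine kinases *Kdr*, *Flt1* and *Flt4*, and the 2 neuropilins *Nrp1* and *Nrp2*. All 10 passed the filter on low values and entered the tests. RNA sequencing covered 15 libraries, 5 each of endovascular progenitor (EVP), transit amplifying (TA) and definitive differentiated (D) cells. B16-F0 is a melanoma line of the mouse. Its tumors were grown in CAG-GFP mice of both sexes, 8 to 14 weeks old, and host-derived GFP+ cells were sorted from them on day 15. In these mice GFP is expressed ubiquitously, so that it serves to tell host from tumor cells and does not mark endothelium. Melanocytic transcripts were still found in every library, as given below. Within lineage-negative CD34+ cells, EVP were gated as low for CD31 and VEGFR2, TA as intermediate for CD31 and low for VEGFR2, and D as high for both. The sources used here do not say whether libraries with different replicate numbers came from separate mice, and p-values therefore measure the spread between libraries, part of which may be technical.

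VEGF ligands are secreted dimers that bind receptor tyrosine kinases on endothelial cells. VEGF-A acts mainly through VEGFR2, the product of *Kdr*, and VEGFR1, the product of *Flt1*, binds VEGF-A, VEGF-B and placental growth factor with high affinity but signals weakly and is known as a decoy. VEGF-C and VEGF-D bind VEGFR3, the product of *Flt4*, and are best known from lymphatic growth, and neuropilins are co-receptors for both VEGF ligands and class 3 semaphorins. VEGFR2 protein set the sort gates, so the differences in *Kdr* transcript are given as a description and counts are over the other 9 genes.

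The sequences upstream of 4 members are shown because these genes carry the contrast between a ligand source and receptor-bearing cells. They are the bases of RefSeq's promoter windows on GRCm38.p6 that lie before both the RefSeq start and the gene's 5′ end in the deposited coordinates, out of the 250 bases before the start. The windows are chrX:164373272-164373377, plus strand, for *Vegfd*; chr17:46032378-46032627, minus strand, for *Vegfa*; chr5:75978459-75978705, minus strand, for *Kdr*; and chr5:147726012-147726261, minus strand, for *Flt1*. Capitals mark matches, on either strand, to GGAAG (the core of ETS factor sites), GGGCGG (the GC box) and ACGTG (the core of hypoxia response elements), and no printed base belonged to 2 matches.
Vegfd: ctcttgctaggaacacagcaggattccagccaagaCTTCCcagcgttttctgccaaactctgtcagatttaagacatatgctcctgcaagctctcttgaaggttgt
Vegfa: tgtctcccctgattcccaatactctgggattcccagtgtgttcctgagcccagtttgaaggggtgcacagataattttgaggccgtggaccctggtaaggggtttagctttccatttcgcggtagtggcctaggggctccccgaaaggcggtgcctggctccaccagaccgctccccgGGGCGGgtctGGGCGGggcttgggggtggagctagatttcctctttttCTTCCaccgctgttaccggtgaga
Kdr: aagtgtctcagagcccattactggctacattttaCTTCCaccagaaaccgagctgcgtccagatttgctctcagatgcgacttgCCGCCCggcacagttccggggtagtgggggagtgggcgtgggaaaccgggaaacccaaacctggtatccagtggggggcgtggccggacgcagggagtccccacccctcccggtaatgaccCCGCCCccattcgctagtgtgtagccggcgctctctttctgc
Flt1: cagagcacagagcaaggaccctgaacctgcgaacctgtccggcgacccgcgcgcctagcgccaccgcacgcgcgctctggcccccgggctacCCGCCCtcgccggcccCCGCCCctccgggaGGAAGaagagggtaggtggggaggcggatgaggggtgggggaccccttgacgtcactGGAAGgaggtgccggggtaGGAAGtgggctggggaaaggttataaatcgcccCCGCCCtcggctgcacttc
All 10 members had a RefSeq window. Within 250 bases of the start, GGAAG was found in 6 of 10 members and in 64.1% of the 32851 windows of all genes, GGGCGG in 9 of 10 members and in 32.7% of all windows, and ACGTG in 0 of 10 members and in 16.6% of all windows. *Vegfd* was the member without GGGCGG. *Flt1* and *Nrp1* had 3 matches to GGAAG each, and those of *Flt1* began 128, 71 and 52 bases before the start. These matches describe letters in the windows and were not tested as binding sites.

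Each library held between 5394356 and 26513073 reads on genes, and replicate 1 had the fewest in each population. The deposited values are counts divided by 1 size factor per library, and 3 reads, the limit used here for a value near 0, corresponded to 1.81 to 10.5 normalized counts. In Lin-CD34+ cells the marker lists were checked first. Of 10 pan-endothelial markers, limma called 9 higher in D than in EVP, without *Tek*, against 7.46% of all tested genes. By contrast, 8 of 8 fibroblast markers were higher in EVP, against 11.6% of all tested genes. *Pecam1* (CD31), itself a sort gate, averaged 260.1 ± 204 normalized counts in EVP and *Cdh5* 72.3 ± 67.9. Summed pan-endothelial markers ranged from 1914 to 3963 normalized counts in EVP, from 5705 to 69312 in TA and from 95280.0 to 148576 in D. Summed fibroblast markers ranged from 840557 to 1494780.0 in EVP, from 190986 to 606222 in TA and from 979 to 4065 in D. The EVP libraries, although labelled as endothelial progenitors, thus held few pan-endothelial and many fibroblast transcripts. In other mice, the study found that most Lin-CD34+ tumor cells carried a *Cdh5*-driven lineage label, which it read as an endothelial origin. In bulk samples fewer cells of a type and less RNA per cell cannot be told apart. No marker of any list was at 0 in all libraries of a population. Among TA libraries, replicate 2 had the highest keratinocyte marker sum (80613) and replicate 5 the highest mural marker sum (156963), with 2042 and 408 normalized counts of *Kdr*. Calls, sums and neuropilin ratios that rest on TA are therefore also given without these libraries, an alternative chosen after seeing the data. The TA libraries kept were those with the highest pan-endothelial sums and the highest *Kdr*. They still include the highest melanocytic sum of TA (replicate 3, 176152) and the highest leukocyte sum (replicate 4, 37860).

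*Vegfd* had the largest difference of the family. EVP replicates 1 to 5 had 3395, 7179, 3160.2, 4427 and 1829 normalized counts. TA had 548, 2772, 645, 800.0 and 862, and D had 46.7, 24.5, 0, 1.5 and 7.86. Every EVP and TA library was above every D library, and the EVP and TA libraries overlapped only through TA replicate 2. The mean of 3998 ± 2004 (SD, n = 5) in EVP was 248-fold that of D (16.1 ± 19.7), with a log2 fold change of 8.88 ± 0.81 (SE; limma, adjusted p = 3.6e-07). TA was 69.9-fold above D (log2 6.91 ± 0.81, limma adjusted p = 1.7e-05). Without D replicate 1 these folds were 472 and 133, and without TA replicate 2 the second was 44.3. The log2 difference between EVP and TA was 1.97 (95% interval from 0.25 to 3.68) and did not pass (limma adjusted p = 0.23). D replicate 3 held no read of *Vegfd*, and replicate 4 was below 3 reads. *Vegfd* lies on chromosome X from 164373378 to 164402650 on the plus strand and shares no exon bases with another gene.

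**Figure D1:**
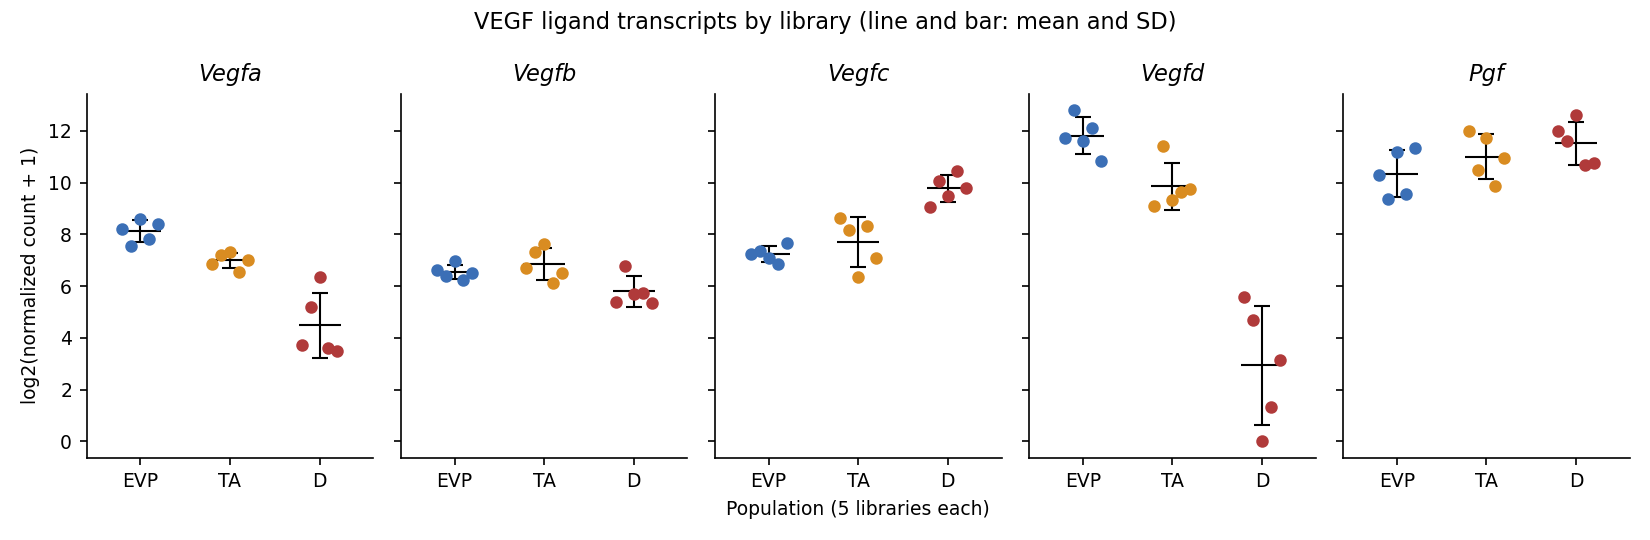
Ligand transcripts as log2(normalized count + 1), 1 point per library, for EVP, TA and D (5 libraries each), with the mean as a line and the SD as a bar. *Vegfd* and *Vegfa* were lowest in D, *Vegfc* was highest in D, and *Vegfb* and *Pgf* overlapped between populations; the *Vegfd* point at 0 is D replicate 3.

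*Vegfa*, the principal ligand of VEGFR2 and the target of anti-VEGF-A therapy, was also higher in EVP. EVP had 298, 186, 389, 226 and 338 normalized counts, TA had 114, 146, 161, 93.2 and 129, and D had 12.4, 35.9, 80.5, 11.3 and 10.3. The 3 populations did not overlap, in the order EVP, TA and D. EVP was 9.56-fold above D (log2 3.64 ± 0.49, limma adjusted p = 2.4e-05) and TA was 4.27-fold above D (log2 2.51 ± 0.49, limma adjusted p = 0.0021), or 16.5-fold and 7.36-fold without D replicate 3. The step from TA to D no longer passed with quantile normalization (limma log2 2.03, adjusted p = 0.072). EVP was 2.24-fold above TA, which did not pass (log2 1.13, 95% interval from 0.10 to 2.16, limma adjusted p = 0.26). Per exon kilobase, the *Vegfa* level in EVP was 67.1 ± 19.3, against 1660.3 ± 832 for *Vegfd*.

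*Vegfc*, which activates VEGFR3, had the opposite order. D had 534, 1080.0, 725, 1412 and 888 normalized counts, whereas EVP had 151, 163, 135, 114 and 201 and TA had 399.9, 285, 80.4, 316 and 136. D lay above both other populations without overlap, and EVP and TA overlapped. D was 6.07-fold above EVP (log2 2.54 ± 0.39, limma adjusted p = 9.7e-05) and 3.81-fold above TA (log2 2.07 ± 0.39, limma adjusted p = 0.0016). The EVP and TA means differed by 0.47 on the log2 scale (higher in TA, 95% interval from -0.35 to 1.29, limma adjusted p = 0.69). The paired lymphatic ligands *Vegfc* and *Vegfd* thus lay at opposite ends of the hierarchy, with *Vegfd* 26.6-fold above *Vegfc* per exon kilobase in EVP and *Vegfc* 56.6-fold above *Vegfd* in D (119-fold without D replicate 1).

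*Pgf*, which encodes placental growth factor, a ligand of VEGFR1, did not pass in any comparison of the limma fit without a replicate block. It had 1260.5, 652, 2339, 762 and 2584 normalized counts in EVP, 4050.4, 1437, 3357, 945 and 1995 in TA, and 4115, 3156, 6284, 1632 and 1715 in D. All 3 populations overlapped. The largest difference was between EVP and D, 2.22-fold higher in D (log2 1.18, 95% interval from 0.18 to 2.18, limma adjusted p = 0.10). This difference passed with the replicate number as a block (limma adjusted p = 0.016).

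*Vegfb*, another ligand of VEGFR1, also did not pass. It had 98.3, 83.6, 124, 74.3 and 89.9 normalized counts in EVP, 103, 158, 198, 68.9 and 89.7 in TA, and 41.2, 110.2, 50.8, 51.8 and 39.9 in D. D replicate 2 stood above its group, and the other 4 D libraries were below every EVP and TA library. The log2 difference of EVP minus D was 0.76 (95% interval from -0.04 to 1.55, limma adjusted p = 0.21), and it turned to -0.18 with quantile normalization.

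*Flt1*, which encodes VEGFR1, separated all 3 populations. EVP had 439, 201, 118, 604 and 1451 normalized counts, TA had 16741, 5139.9, 11629, 7538 and 2752, and D had 22154, 27733, 36150.4, 44238 and 33272. No library of one population reached the range of another. D was 58.1-fold above EVP (log2 6.34 ± 0.55, limma adjusted p = 2.1e-07), TA was 15.6-fold above EVP (log2 4.22 ± 0.55, adjusted p = 0.0012), and D was 3.73-fold above TA (log2 2.12 ± 0.55, adjusted p = 0.016). Without EVP replicate 5, D was 96.1-fold and TA 25.7-fold above EVP. Counts per gene do not separate the membrane receptor from the soluble form that *Flt1* also encodes.

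*Flt4*, which encodes VEGFR3, followed the same order at a lower level. It had 17.6, 13.1, 28.6, 40.8 and 95.4 normalized counts in EVP, 1813, 294, 1189, 791 and 69.7 in TA, and 2543, 3329.9, 3183, 4729 and 3746 in D. D lay above every other library, and TA replicate 5 fell within the EVP range. D was 89.7-fold above EVP (log2 6.77 ± 0.69, limma adjusted p = 1.2e-06) and 4.22-fold above TA (log2 2.74 ± 0.69, adjusted p = 0.013), and TA was 21.3-fold above EVP (log2 4.03 ± 0.69, adjusted p = 0.0045). These folds from EVP were 140.2 and 33.3 without EVP replicate 5. The difference between TA and D did not pass with quantile normalization (limma adjusted p = 0.077), nor did that between EVP and TA without the 3 replicate 1 libraries (limma adjusted p = 0.080).

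*Kdr*, the gene of the gated protein VEGFR2, had 565, 94.1, 151, 712 and 538 normalized counts in EVP, 9699, 2042, 4425, 4425 and 408 in TA, and 15216, 16861, 16215, 26252 and 24618 in D. TA replicate 5 lay within the EVP range. TA was 10.2-fold above EVP, although both were gated as low for VEGFR2, and D was 48.1-fold above EVP. Without TA replicates 2 and 5 the TA mean of *Kdr* was 6183 normalized counts, and D was 3.21-fold above it.

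**Figure D2:**
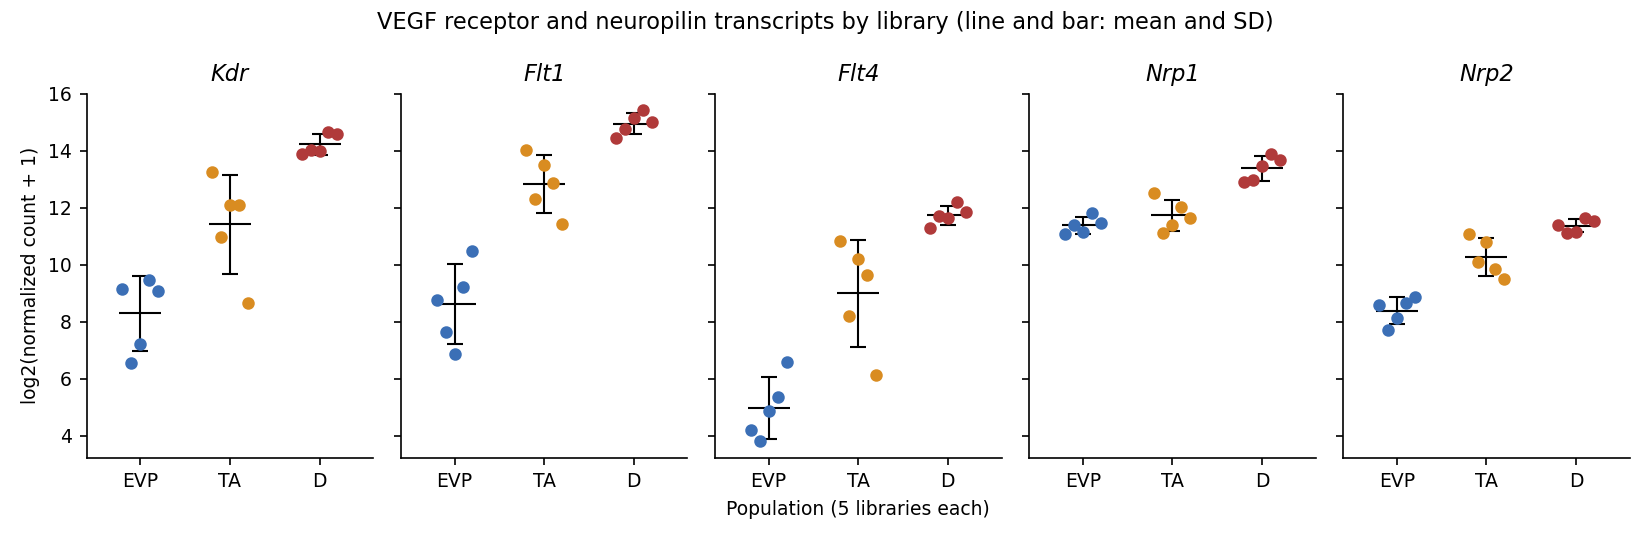
Receptor and neuropilin transcripts as log2(normalized count + 1), 1 point per library, for EVP, TA and D (5 libraries each), with the mean as a line and the SD as a bar. All 5 were highest in D, TA replicate 5 had the lowest *Kdr*, *Flt1*, *Flt4* and *Nrp2* among TA libraries, and *Nrp1* was at least 2159 normalized counts in every EVP library.

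*Nrp1* was the most abundant of the 5 receptor and neuropilin transcripts in EVP, at 278 ± 59.8 normalized counts per exon kilobase. Its values were 2159, 2689.8, 2275, 3638 and 2837 normalized counts in EVP, 5874, 2249.6, 2672, 4236 and 3186 in TA, and 7738, 8001, 11254, 15367 and 13241 in D. D stood above both other populations, which overlapped. D was 4.09-fold above EVP (log2 2.00 ± 0.25, limma adjusted p = 1.3e-05) and 3.05-fold above TA (log2 1.64 ± 0.25, adjusted p = 0.00027). The log2 difference between EVP and TA was 0.36 (higher in TA, 95% interval from -0.17 to 0.89, limma adjusted p = 0.59). *Nrp1* shares 80 exon bases on the same strand with the microRNA gene *Mir1903*.

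*Nrp2*, the co-receptor best known for VEGF-C in lymphatic and venous vessels, rose at both steps. EVP had 386, 208, 279, 402 and 465 normalized counts, TA had 2167, 1104, 1796, 936 and 732, and D had 2677, 2252, 2259, 3175 and 3011. The 3 populations did not overlap. TA was 3.87-fold above EVP (log2 1.89 ± 0.29, limma adjusted p = 0.0024) and D was 1.99-fold above TA (log2 1.09 ± 0.29, adjusted p = 0.016), which made D 7.68-fold above EVP (log2 2.98 ± 0.29, adjusted p = 6.1e-07).

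The balance of the neuropilins lay further toward *Nrp1* in EVP than in the other populations. The log2 ratio of *Nrp1* to *Nrp2* per exon kilobase was 2.76, 3.96, 3.30, 3.45 and 2.88 in EVP, 1.71, 1.30, 0.85, 2.45 and 2.40 in TA, and 1.81, 2.10, 2.59, 2.55 and 2.41 in D. EVP libraries were above all others. The ratio in EVP exceeded that in D by 0.98 and that in TA by 1.53 (two-sided exact permutation tests, each p = 0.0079 and adjusted p = 0.012, which is the smallest p that 5 against 5 libraries allow before adjustment). TA was below D by 0.55, with overlap (exact permutation p = 0.14, adjusted p = 0.14). Without TA replicates 2 and 5 the differences were 1.60 between EVP and TA (exact permutation, adjusted p = 0.027) and -0.62 between TA and D (exact permutation, adjusted p = 0.16). The EVP libraries held a geometric mean of 9.64 *Nrp1* to 1 *Nrp2*, against 3.35 in TA and 4.90 in D.

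Over the family, 7 of the 9 genes other than *Kdr* passed between EVP and D in limma, 2 higher in EVP and 5 higher in D, where 19.0% of all 25549 tested genes passed (11.6% higher in EVP and 7.46% higher in D). The libraries of these 7 genes did not overlap, as was the case for 17.7% of all genes (10.2% in the direction of EVP and 7.52% in that of D). Between EVP and TA 3 of 9 passed, all higher in TA, where 3.50% of all genes passed (1.56% higher in EVP and 1.94% higher in TA). Here 3 of 9 did not overlap, *Vegfa* higher in EVP and *Flt1* and *Nrp2* higher in TA, as did 4.29% of all genes (2.70% and 1.59%). Between TA and D 7 of 9 passed, 2 higher in TA and 5 higher in D, where 12.5% of all genes passed (8.21% and 4.31%). The same 7 did not overlap, as did 9.25% of all genes (5.56% and 3.69%). Without TA replicates 2 and 5 together, 4 of 9 passed between TA and D (*Vegfa*, *Vegfc*, *Vegfd* and *Nrp1*). *Flt1*, *Flt4* and *Nrp2* no longer passed there (limma adjusted p = 0.14, 0.070 and 0.13). Fewer of the 25549 tested genes also passed between TA and D, 2136 in place of 3199 with all libraries. The count between EVP and TA was again 3 of 9, while more of all tested genes passed, 1351 in place of 893. The median log2 fold change of the 9 genes was -2.0 for EVP minus D, -0.47 for EVP minus TA and -1.09 for TA minus D, and that of all tested genes was 0.46, 0.085 and 0.24. The comparisons share libraries, and their counts are not independent of each other.

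**Figure D3:**
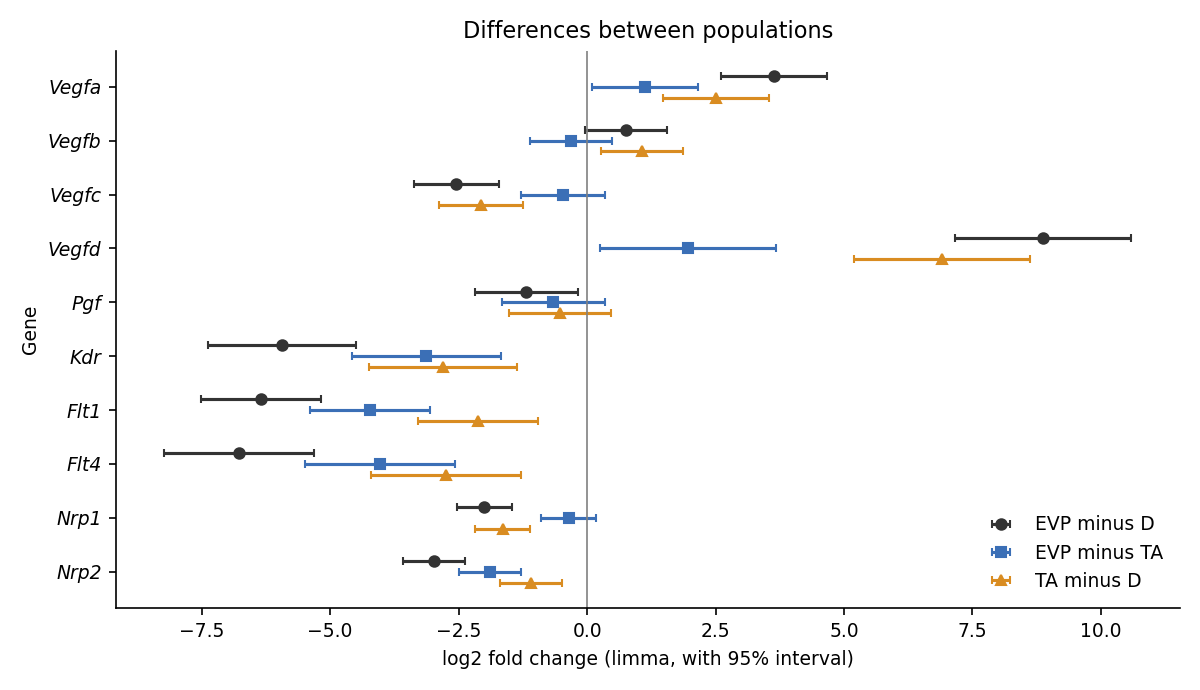
Log2 fold changes of the 10 genes in the 3 comparisons with 95% intervals from limma, with positive values higher in the first population named. *Vegfa* and *Vegfd* lie to the right of 0 and the receptors and neuropilins to the left, and the *Vegfd* estimate for EVP minus D is 8.88.

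Ligand and receptor transcripts were then set side by side per exon kilobase, the scale on which levels of different genes were compared. Summed ligands were 2372 ± 587 normalized counts per kilobase in EVP, 1486 ± 456 in TA and 1594 ± 591 in D (SD, n = 5), and their ranges overlapped. Summed receptor tyrosine kinases, which include the gated *Kdr*, were 92.0 ± 65.4 in EVP, 1215 ± 876 in TA and 5044 ± 1208 in D. Summed neuropilins were 307 ± 63.1, 486 ± 180 and 1362 ± 365. The ratio of ligand to receptor transcripts thus ranged from 10.5 to 125 in EVP, from 0.741 to 4.61 in TA and from 0.174 to 0.517 in D. The ranges of this ratio did not overlap, and a transcript ratio says nothing of protein amounts. Without TA replicates 2 and 5 the TA sums were 1449 ± 533 for ligands, 1725 ± 723 for receptors and 573 ± 187 for neuropilins (SD, n = 3), and the ratio of ligand to receptor transcripts in TA ranged from 0.741 to 1.08. In EVP the neuropilin sum was above the receptor sum in every library, and in D it was below it in every library.

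The makeup of the ligand sum differed between populations. *Vegfd* made up 67.3% ± 19.4 of the ligand sum in EVP, 31.7% ± 19.4 in TA and 0.433% ± 0.474 in D (n = 5). *Pgf* made up 24.4% ± 16.8 in EVP, 53.6% ± 21 in TA and 69.1% ± 16.3 in D. *Vegfc* accounted for 2.76% ± 0.995, 7.34% ± 4.99 and 27.6% ± 15.9, and *Vegfa* for 3.03% ± 1.21, 2.12% ± 0.501 and 0.381% ± 0.246. *Vegfb* held 2.59%, 5.20% and 2.46% in EVP, TA and D. On average, then, a ligand of VEGFR3 led the ligand sum in EVP (*Vegfd*) and a ligand of VEGFR1 led it in TA and D (*Pgf*). Some libraries differed from their population's average. *Pgf* led in EVP replicate 5 (47.7%), *Vegfd* in TA replicates 2 (60.7%) and 4 (39.0%), and *Vegfc* in D replicate 4 (49.1%). Without TA replicates 2 and 5, *Pgf* held 61.3% and *Vegfd* 22.6% of the ligand sum in TA.

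The receptor sum was divided in the same way. In D, *Flt1* held 48.0% ± 4.41, *Kdr* 43.6% ± 4.31 and *Flt4* 8.47% ± 0.550. In TA these shares were 58.7% ± 12.4, 34.1% ± 10.3 and 7.12% ± 2.63 (51.8%, 39.3% and 8.92% without TA replicates 2 and 5), and in EVP 42.8% ± 13.9, 51.1% ± 14.1 and 6.10% ± 3.74. *Flt1* exceeded *Kdr* per kilobase in all 5 TA libraries, from 1.14-fold to 4.51-fold (at most 1.76-fold without replicates 2 and 5), and in D the ratio lay between 0.904 and 1.49. The *Kdr* shares come from populations gated on VEGFR2 and are descriptions.

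**Figure D4:**
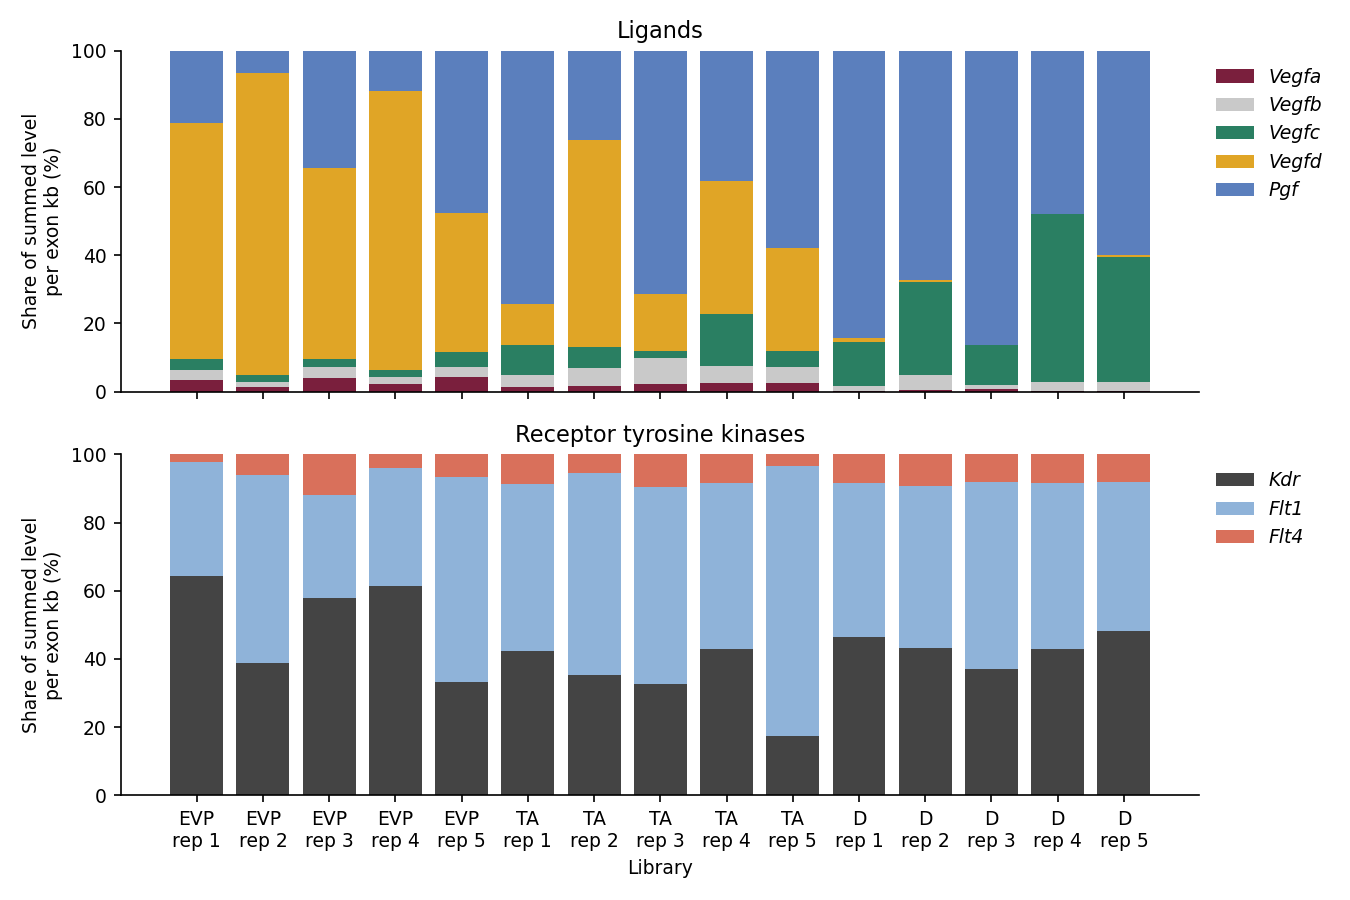
Share of each ligand in the ligand sum and of each receptor in the receptor sum, per exon kilobase, as stacked bars that reach 100% for each of the 15 libraries. *Vegfd* takes 40.7% to 88.5% of the ligand sum in EVP libraries and at most 1.15% in D libraries, and *Flt4* is the smallest receptor share in every library.

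The lists of other VEGF pathway genes were chosen with earlier results of these data known, and they are described by counts and medians. Of 27 genes of VEGF receptor signaling, 12 passed in limma with higher levels in D than in EVP and 3 with higher levels in EVP, against 7.46% and 11.6% of all genes. *Nos3*, the nitric oxide synthase of endothelium, averaged 27.4 ± 22.0 normalized counts in EVP against 2728 ± 474 in D (99.4-fold, limma adjusted p = 2.1e-06). *Yes1*, a Src family kinase, was 4.16-fold higher in D, while *Src* itself was 8.94-fold higher in EVP and *Prkca*, a protein kinase C, 3.76-fold higher in EVP. The list's median log2 fold change of EVP minus D was -0.47, against 0.46 over all genes. Between EVP and TA 2 of the 27 passed, both higher in TA, against 3.50% of all genes (1.94% higher in TA). Between TA and D 9 passed, 6 of them higher in D, against 12.5% of all genes (4.31% higher in D).

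Of 13 receptor adaptors and trafficking genes, 8 passed with more transcript in D and 1 with more in EVP, against 7.46% and 11.6% of all genes (median -1.09, against 0.46 over all genes). *Cdh5*, VE-cadherin, which binds VEGFR2 at junctions, was 136-fold higher in D. *Efnb2*, ephrin-B2, which promotes receptor internalization, was 6.39-fold higher in D, and the integrin subunits *Itga9* and *Itgb3* were 7.02-fold and 3.29-fold higher. Of 12 negative regulators, 7 were higher in D and 2 in EVP, with the same shares of all genes as the background (median -1.07). *Ptprb*, which encodes VE-PTP, a phosphatase of the endothelial receptor complex, had 123 ± 66.0 normalized counts in EVP, 1212 ± 978 in TA and 7209 ± 1753 in D (58.4-fold between EVP and D, limma adjusted p = 2.0e-06). *Spry4*, an inhibitor of receptor tyrosine kinase signaling, was 17.5-fold higher in D and *Vash1*, vasohibin-1, 22.9-fold higher, whereas the phosphatase gene *Ptprj* was 6.71-fold higher in EVP.

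Of 17 genes known to respond to VEGF, 7 were higher in D and 6 in EVP, 13 in all where 19.0% of all genes passed, and the list's median of 0.42 lay near the 0.46 over all genes. *Dll4*, the Notch ligand of tip cells, was 106-fold higher in D, *Angpt2*, angiopoietin-2, 78.8-fold and *Esm1*, endocan, 69.8-fold. *Ptgs2*, cyclooxygenase-2, was 50.5-fold higher in EVP (6267 ± 3885 against 124 ± 90.9 normalized counts, limma adjusted p = 2.2e-08). Of 15 tested endothelial transcription factors, 12 were higher in D than in EVP, against 7.46% of all genes (median -3.52). *Sox7*, *Sox17* and *Sox18*, the SOXF factors of endothelial specification, were 127-fold, 98.9-fold and 74.1-fold higher in D, and *Tal1* was 58.9-fold higher. Between EVP and TA 10 of the 15 were higher in TA, against 1.94% of all genes.

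Of 16 hypoxia regulators and targets, 2 were higher in D and 1 in EVP, a share near the 19.0% of all genes, with a median of 0.032. *Epas1*, which encodes the hypoxia-inducible factor HIF-2α, had 461 ± 164 normalized counts in EVP, 2548 ± 627 in TA and 6363 ± 1439 in D (13.8-fold between EVP and D, limma adjusted p = 5.2e-09). *Ankrd37* was 4.45-fold higher in D and *Bnip3*, a mitophagy receptor, 2.63-fold higher in EVP. *Vegfa* is a known target of hypoxia-inducible factors, and the part of these factors in its level was not tested. *Vegfa* transcript was highest in EVP and *Epas1* transcript highest in D, while *Hif1a* did not pass in any of the 3 comparisons.

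Of 16 genes that process or store the ligands, 10 were higher in EVP than in D and 3 were higher in D, against 11.6% and 7.46% of all genes (median 3.53, against 0.46 over all genes). Of the same 16, 11 were higher in TA than in D, against 8.21% of all genes. *Ccbe1*, a cofactor of the proteolytic activation of VEGF-C, averaged 464 ± 217 normalized counts in EVP against 2.5 ± 2.78 in D (186-fold, limma adjusted p = 5.0e-07). *Adamts14* was 147-fold higher in EVP, and *Mmp3* and *Mmp9*, metalloproteases that release matrix-bound VEGF, were 370.2-fold and 94.2-fold higher. D therefore held the highest *Vegfc* and few reads of *Ccbe1*, whereas EVP held *Ccbe1* with low *Vegfc*.

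Class 3 semaphorins and plexins, among them other ligands and partners of neuropilins, divided. Of 12, 6 were higher in EVP and 4 in D, against 11.6% and 7.46% of all genes (median -0.10). *Sema3c* was 64.5-fold higher in EVP and *Sema3e* 17.5-fold higher, and the plexin gene *Plxna3* was 27.6-fold higher in EVP. *Sema3f*, a ligand of neuropilin-2, was 70.1-fold higher in D, where *Nrp2* was also highest.

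*Flt1* was higher in populations with a higher endothelial marker sum, and it followed the sum within TA but not throughout EVP and D. EVP replicate 1 had the lowest sum (1914) and more *Flt1* (439) than replicates 2 (201) and 3 (118). D replicate 5 had a higher sum than D replicate 3 (120435 against 112865) and less *Flt1* (33272 against 36150). Within TA, replicate 1 had the highest sum (69312) and replicate 5 the lowest (5705), and the *Flt1* values of these libraries were 16741 and 2752. Markers of other cells moved as well. Summed melanocytic markers ranged from 29776 to 67410.0 normalized counts in EVP, 69334 to 176152 in TA and 18213 to 47919.9 in D. They were thus present in every library of the GFP+ sort, and in every TA library their sum exceeded the pan-endothelial sum. Summed keratinocyte markers ranged from 1257 to 7324, 1854 to 80613 and 97.3 to 2322. Between EVP and D, 1 of 7 melanocytic and 3 of 6 keratinocyte markers were higher in EVP, against 11.6% of all genes. Between TA and D, 7 of 7 and 6 of 6 were higher in TA, against 8.21% of all genes. Between EVP and TA, 3 of 7 and 0 of 6 were higher in TA, against 1.94%. Of 9 mural markers 4 were higher in EVP and 2 in D, against 11.6% and 7.46% of all genes. Between TA and D 6 of them were higher in TA, and between EVP and TA 2 were higher in TA, against 8.21% and 1.94% of all genes. Mural sums ranged from 7401 to 34433, 6212 to 156963 and 5212 to 10888. Leukocyte marker sums were 1939 to 10364, 6681 to 37860.2 and 3050.1 to 9708. Of 7 leukocyte markers 1 was higher in EVP than in D, a share near the 11.6% of all genes. In TA 4 of the 7 were higher than in EVP and 3 higher than in D, against 1.94% and 8.21%. Of 5 lymphatic endothelial markers, *Pdpn* was higher in EVP and *Lyve1* and *Mmrn1* higher in D, against 11.6% and 7.46% of all genes. The defining *Prox1* had 88.4 ± 153, 10.4 ± 11.9 and 30.6 ± 26 normalized counts in EVP, TA and D. The part of these other cells in the ligand and receptor levels was not tested, nor was the source of the melanocytic transcripts.

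**Figure D5:**
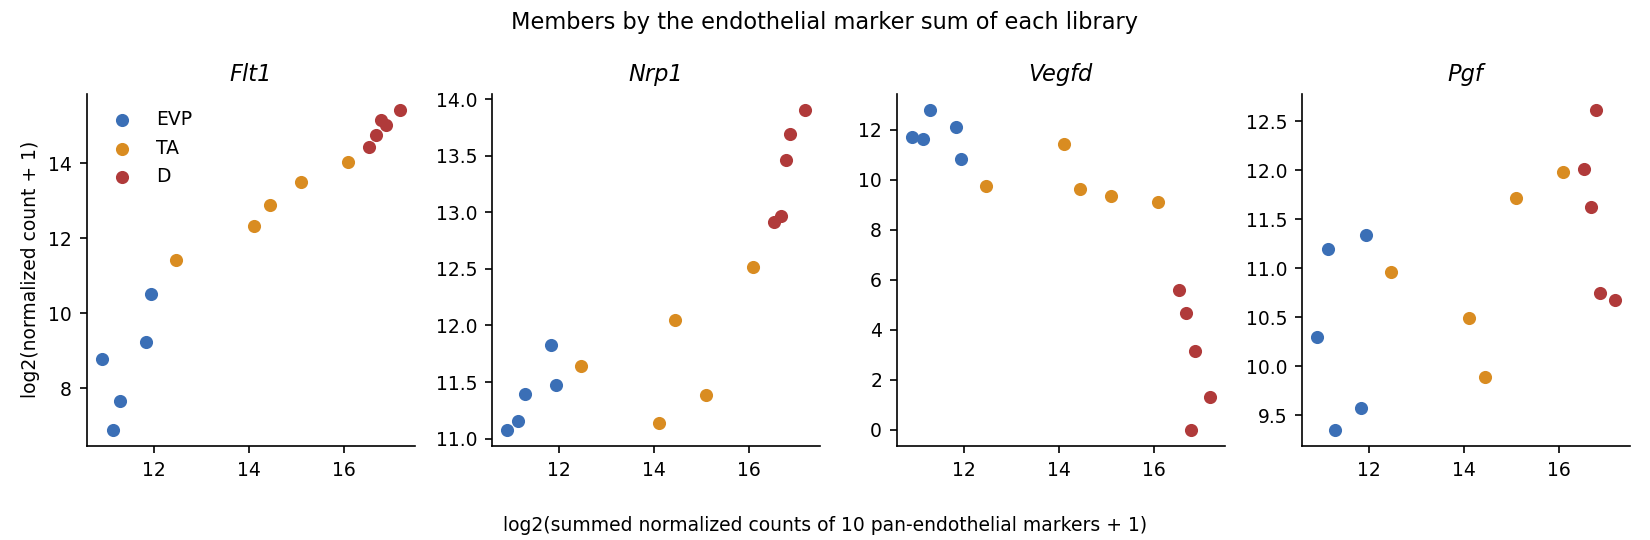
*Flt1*, *Nrp1*, *Vegfd* and *Pgf* as log2(normalized count + 1) against the log2 of the summed normalized counts of 10 pan-endothelial markers, 1 point per library, with a separate vertical scale in each panel. *Flt1* is higher in populations with a higher sum. *Vegfd* stays at or above 548 normalized counts in all EVP and TA libraries and at or below 46.7 in D, and *Pgf* varies within each population.

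Genes with the pattern most like each member were named by Pearson's r of log2 values over the 15 libraries, which share populations and depth, so that r is a description. For *Vegfd* these were *Pdgfra* (0.992), *Mfap5* (0.992) and *Mmp3* (0.991), of which *Pdgfra* is a fibroblast marker. *Vegfa* was closest to *Rora* (0.965), *Mgarp* (0.940) and *Bcat1* (0.939), and *Vegfc* to *Ripply3* (0.960), *Plekha1* (0.955) and *Tpst2* (0.942). *Pgf* was closest to *Egln3* (0.882) and *Ankrd37* (0.846), both on the hypoxia list, followed by *Aimp2* (0.787). *Vegfb* was closest to *Catip* (0.931), *Gm43123* (0.866) and *Rpl31-ps8* (0.861).

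Among the receptors, *Kdr* was closest to *Nos3* (0.987), *Mmrn2* (0.986) and *Pde4b* (0.986), *Flt1* had *Arap3* (0.989), *Emcn* (0.988) and *Angpt2* (0.988), and *Flt4* had *Plvap* (0.996), *Cd300lg* (0.995) and *Egfl7* (0.992). *Nrp2* was closest to *Rapgef3* (0.987), *Kcnq1* (0.986) and *Adgrf5* (0.986), and *Nrp1* to *Mgat1* (0.972), *Asap1* (0.971) and *Hpcal1* (0.961). Among the members themselves, *Kdr*, *Flt1*, *Flt4* and *Nrp2* had r between 0.961 and 0.979 in every pair, whereas *Nrp1* had r between 0.801 and 0.844 with them and -0.932 with *Vegfd*. *Pgf* had r of -0.23 with *Vegfa* and 0.59 with *Flt4*.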

How the data were processed

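The data comprised 15 RNA sequencing libraries. Per the labels and the study's methods, libraries were made with a modified Smart-Seq2 protocol, which does not keep strand, reads were mapped to mm10 (GRCm38) with STAR 2.5.3a and counted per gene with HTSeq-count on Ensembl annotation, and counts were normalized with DESeq2 1.10.1. The deposited signal values are gene counts that the authors divided by 1 size factor per library. Dividing each library by its smallest value above 0 gave whole reads for 100% of values (tolerance 0.001). The authors' tables of their own comparisons hold fold changes and p-values and were not used.

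The members and gene lists were chosen with earlier results of these data known. Log2(normalized count + 1) was fitted for 25549 genes (mean 5 or more) with limma 3.58.1 in R 4.3.3, with all 3 populations in 1 model and a trend, and two-sided p was adjusted by the Benjamini-Hochberg method over all genes (threshold 0.05). Log2 fold changes are differences of means on this scale, and the added 1 understates changes of low genes. Folds compare mean normalized counts, so a fold and the log2 fold change beside it can differ in size. Errors are SD over 5 libraries unless given as SE. Of the neuropilin ratio, 3 comparisons were tested by exact permutation and adjusted together. Levels per kilobase used merged exon lengths from the GENCODE annotation of GRCm38, in which all 10 members had the coordinates of the deposited table. The 3-read limit covers counting error only. The scripts were tested on simulated data.

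The text names all members, marker genes where a result touches them, up to 4 genes of each other pathway list with the largest fold change between EVP and D among those that passed, and the 3 genes with the highest Pearson's r to each member. *Itgam* and *Ccl21a* were left out because their symbols belong to 2 genes each. Alternatives covered pseudocount (0.5 or 8), minimum mean (none or 20), scaling, edgeR 4.0.16 and DESeq2 1.42.0 on whole reads, fits of 2 populations, the replicate number as a block and leaving out libraries. Same-numbered libraries of different populations had correlated deviations (r over 0.1) in 11 of 15 pairs, and the lowest r was -0.136. The labels do not say that equal numbers mean the same mouse or day. The main fit was therefore unpaired, and the block was an alternative.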

Additional observations from a re-analysis of the deposited data

Results flagged for a closer look

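In each group of 5 libraries, the gap between an extreme library and its nearest neighbour was compared with Dixon's critical value (0.71) in 33 groups, and chance exceeds it in about 1 group in 20. *Vegfb* in D replicate 2 (110.2 normalized counts) stood above the other D libraries, which lay between 39.9 and 51.8. *Vegfd* in TA replicate 2 (2772 normalized counts) stood above the other TA libraries, which lay between 548 and 862. The same TA library had the highest keratinocyte marker sum of TA. Its fibroblast marker sum (515442) was exceeded in TA only by that of replicate 5 (606222), which had 862 normalized counts of *Vegfd*. The part of keratinocytes or fibroblasts in the *Vegfd* of TA replicate 2 was not tested.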

How the results depend on the processing

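The 7 members called between EVP and D passed with the same sign under all 27 alternatives. The number of genes called between EVP and TA (893) was the least stable. DESeq2 called 1900, edgeR 663, and the count was 104 without the 3 replicate 1 libraries, 1351 without TA replicates 2 and 5 together (added after seeing the data), and 429 to 1214 when 1 library was left out, with 429 without EVP replicate 2, 472 without EVP replicate 3 and 560 without TA replicate 3. Between TA and D, quantile normalization called 2117 genes (3199 in limma). Scaling moved the split of calls: 1920 higher in EVP and 1983 in D with quantile normalization (2952 and 1907 in limma), 237 higher in EVP and 714 in TA with equal totals (398 and 495), and 1206 higher in TA and 911 in D with quantile normalization (2098 and 1101). The median log2 fold change of all genes between EVP and D moved from 0.46 to -0.05 with quantile normalization and to 0.0012 without EVP replicate 1.

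*Vegfb* between EVP and D reversed with quantile normalization (-0.18, limma adjusted p = 0.91). Among calls of single members, *Vegfb* between TA and D passed in DESeq2 (adjusted p = 0.034), without TA replicate 4 (limma adjusted p = 0.048) and without D replicate 2 (limma adjusted p = 0.031). *Vegfd* between EVP and TA passed with a pseudocount of 8 (limma adjusted p = 0.045) and in a fit of 2 populations (adjusted p = 0.033). *Kdr* between EVP and TA was lost in 4 alternatives (limma adjusted p up to 0.12). *Bnip3* was lost without the 3 replicate 1 libraries (limma adjusted p = 0.053). The causes were not tested.

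With the replicate number as a block, limma called 5710, 1262 and 4047 genes, and *Pgf* passed between EVP and D (limma adjusted p = 0.016). The neuropilin ratio differed by 0.98 (EVP minus D), 1.53 (EVP minus TA) and -0.55 (TA minus D). Each difference had an exact adjusted p of 0.0625, the smallest p that 5 sign changes allow, so this test could not pass. In 23 of 30 cases a library correlated best with its own number, a hint from the data and not from the design.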
